A study of Saccharomyces cerevisiae BY4741 with 8 samples.

Results

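*RPL1A* to *RPL34B* are the genes for the first part of the numbered proteins of the large subunit of the yeast cytosolic ribosome. Members were taken by their systematic open reading frame names, and all 60 were found on the arrays, among 6389 genes in all. They form 26 pairs of paralogues and 8 genes without a paralogue (*RPL3*, *RPL5*, *RPL10*, *RPL25*, *RPL28*, *RPL29*, *RPL30* and *RPL32*), and they were chosen by name and not by any measured value. *Saccharomyces cerevisiae* BY4741, a haploid laboratory strain, was grown at early log phase in synthetic complete medium with glucose. Each culture was divided, and one portion received KP1019, an anticancer ruthenium complex, at 40 or 80 μg/ml for 3 h while the other portion grew without drug for the same time. There were 2 biological replicates at each dose, and cDNA of the treated and the untreated portion of each was co-hybridized to a pair of spotted arrays with the Cy5 and Cy3 dyes exchanged (dye reversal), giving 8 arrays. Every value below is a log2 ratio of treated to untreated signal on the same array after normalization, so that -1 stands for a 2-fold lower signal in treated cells.

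Proteins of the large subunit fold onto the ribosomal RNA in the nucleolus and nucleus, and the finished subunit holds the peptidyl transferase centre, where amino acids are joined, and the tunnel through which the new chain leaves. Growing yeast cells devote a large share of their transcription by RNA polymerase II to ribosomal protein genes, which are turned on together through Rap1, Fhl1, Ifh1, Sfp1 and Hmo1, and which are known to be turned down together in many kinds of stress. Most of these genes survive as pairs from an ancient duplication of the whole genome, and the paralogues of several pairs, among them *RPL1*, *RPL2*, *RPL12*, *RPL19* and *RPL23*, encode identical proteins.

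Each array carried 6688 features, and the members had 76 spots, of which 17 belonged to *RPL32* and 1 to each other gene. A spot was called above background when it exceeded the median of the 85 blank spots by 3 median absolute deviations. On the 8 arrays 67.5% to 98.5% of gene spots passed in the treated and 86.4% to 99.2% in the untreated channel. Of the genes deleted in BY4741, *URA3* was above the blank spots in the untreated channel of 1 array, *LEU2* of 5 and *MET17* of 8. In the limma test at 40 μg/ml (adjusted p under 0.05), *MET17* (-1.45, adjusted p = 0.0046) and *LEU2* (-0.57, adjusted p = 0.046) were lower. *URA3* (0.24) did not pass, and none of these genes did at 80 μg/ml. Spots of the 5 a-specific genes (*STE2*, *MFA1*, *MFA2*, *BAR1* and *STE6*) and of the 3 alpha-specific genes (*STE3*, *MF(ALPHA)1* and *MF(ALPHA)2*) passed in the untreated channel of 7 or 8 arrays each, so that these spots did not separate the mating types. By limma *MF(ALPHA)2* was lower at 40 μg/ml (-1.16, adjusted p = 0.016). At 80 μg/ml *BAR1* was lower (-1.35, adjusted p = 0.0068) and *STE3* higher (0.81, adjusted p = 0.042). What the spots of deleted or mating-type genes detect was not tested. The ratios of the first replicate at 40 μg/ml were the most widely spread, with a median absolute deviation over all genes of 0.74 and 0.68 on its arrays against 0.30 to 0.48 on the others.

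At 40 μg/ml the large-subunit genes were shifted downward as a group. Of the 60 members, 31 fell and 1 (*RPL2A*) rose at an adjusted p under 0.05 (limma, adjusted over all genes), while over all 6389 genes 10.3% were called lower and 13% higher, 23.3% together. The median log2 ratio of the members was -0.64, against -0.01 over all genes, and 56 of the 60 members lay below 0. The median was -0.79 in replicate 1 and -0.45 in replicate 2, and on single arrays it lay between -0.79 and -0.38. On 4 of 4 arrays 44 members were below 0, compared with 24.5% of all genes. The decrease was at least 2-fold in 15 members. The 31 genes that fell spanned -1.53 to -0.60, and those not called spanned -0.47 to 0.12. In a culture measured in bulk, a lower amount of a transcript in every cell and a lower number of cells that carry it cannot be told apart.

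**Figure D1:**
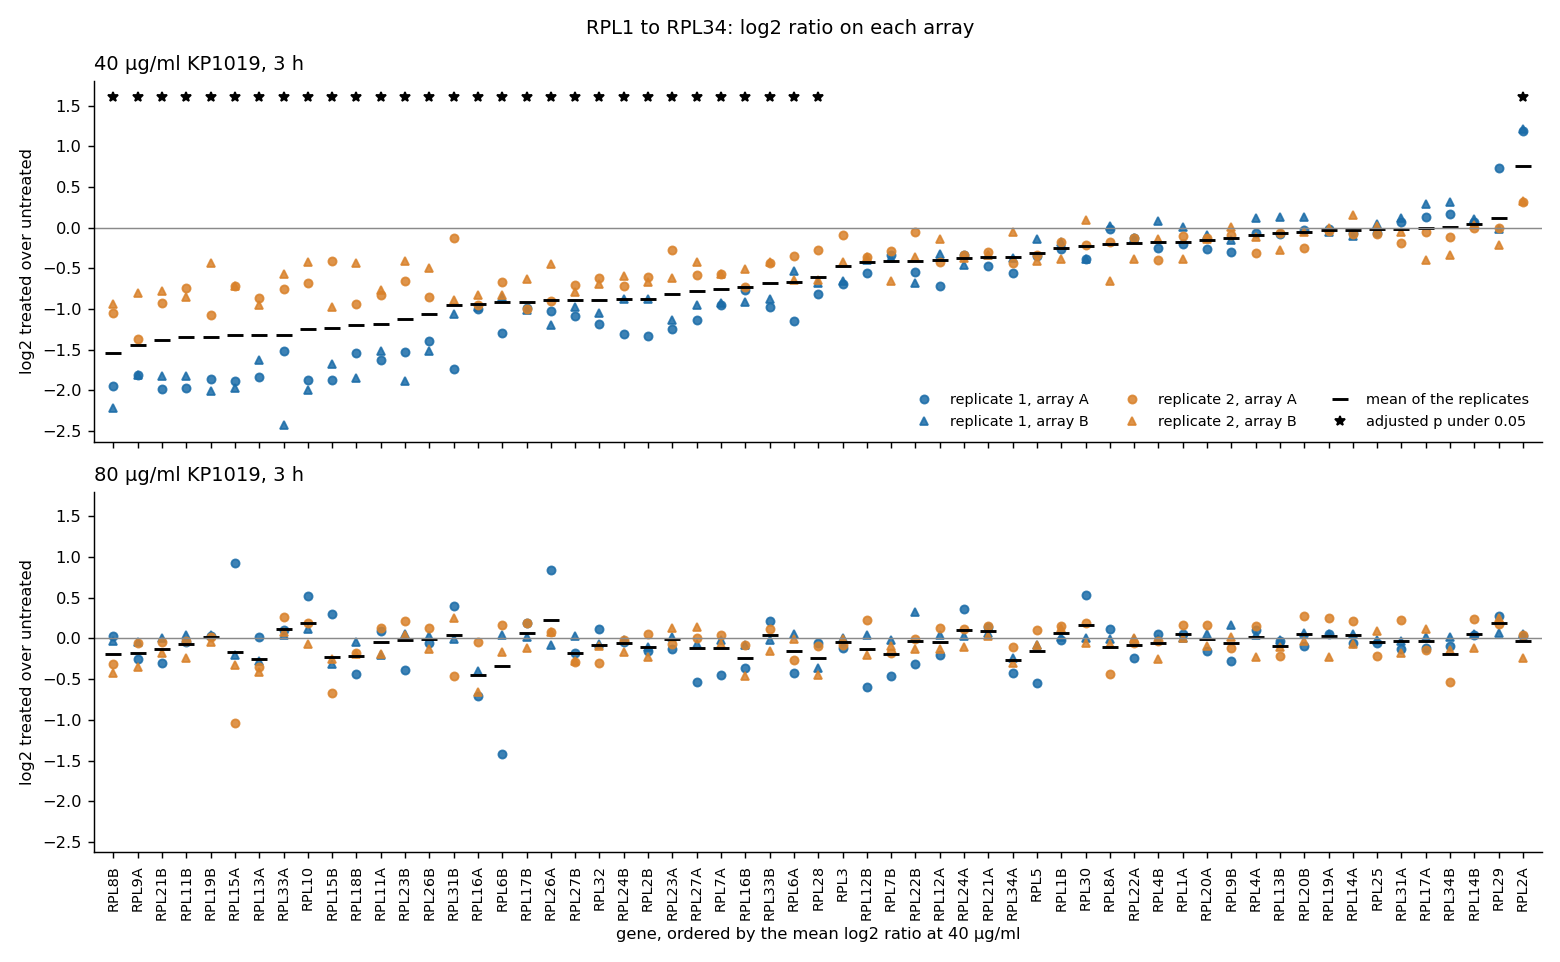
Log2 treated over untreated of 59 of the genes on each array at 40 μg/ml (top) and 80 μg/ml (bottom), ordered by the mean at 40 μg/ml. Colours mark the 2 replicates, symbols their dye-reversal arrays, dashes the means and stars an adjusted p under 0.05. At 40 μg/ml 30 of the genes shown fell and *RPL2A* rose, with replicate 1 further from 0 than replicate 2 in all 30, and at 80 μg/ml none was called.

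The size of the decrease differed between the replicates. In all 31 genes that fell, replicate 1 was lower than replicate 2. Replicate 1 covered -2.08 to -0.74 in these genes and replicate 2 covered -1.08 to -0.43. The order of the members was alike in both, with r = 0.87 across the 60 genes, which share the same arrays and are not independent. A fit without 1 replicate of a dose has no spread left at that dose. Its p-values rest on the spread at the other dose and over all genes. Without replicate 1 of 40 μg/ml 21 members were called lower, all of them among the 31, and without replicate 2 there were 34. Of all genes, 7.26% and 23.8% were called lower in these fits, against 10.3% with both replicates.

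*RPL8B* (YLL045C), which encodes a structural protein needed for early steps of pre-rRNA processing, had the lowest ratio. Its log2 values were -1.94 and -2.21 on the arrays of replicate 1 and -1.05 and -0.94 on those of replicate 2, all 4 far below 0. The mean was -1.53 ± 0.77 (SD, n = 2), a 2.90-fold decrease with an adjusted p of 0.010 (limma). Before normalization the *RPL8B* spot gave intensities of 13247, 9790, 13270 and 9279 in the untreated channel of the arrays A and B of replicates 1 and 2, and 1267, 1060, 5027 and 1946 in the treated channel.

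Genes of the peptidyl transferase centre and the wall of the tunnel (*RPL2*, *RPL3*, *RPL4*, *RPL10* and *RPL28*) were divided: 3 of 7 fell, 1 rose and 3 were not called, with a median of -0.47. Beside this count and those of the groups below stand the 10.3% of all genes called lower and the 13% called higher at 40 μg/ml. *RPL10* (YLR075W), whose protein joins the subunit late, next to the site where tRNA is accommodated, gave -1.88 and -2.0 in replicate 1 and -0.68 and -0.42 in replicate 2. Its mean was -1.24 ± 0.98 (adjusted p = 0.026), and in replicate 2 alone it was -0.55. *RPL28* fell by 0.60 ± 0.20 (adjusted p = 0.038). *RPL3*, whose protein reaches into the peptidyl transferase centre, had -0.47 ± 0.29 and missed the threshold (adjusted p = 0.090), as did *RPL4A* at -0.09 and *RPL4B* at -0.18.

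*RPL2A* (YFR031C-A) was the member that rose. The protein encoded by both *RPL2* genes lies beside the peptidyl transferase centre. *RPL2A* read 1.19 and 1.21 on the arrays of replicate 1 and 0.31 and 0.33 on those of replicate 2, above 0 on each, whereas *RPL2B* (YIL018W) read -1.34, -0.87, -0.61 and -0.67. The mean of *RPL2A* was 0.76 ± 0.62 (adjusted p = 0.047), a 1.69-fold increase, and that of *RPL2B* was -0.87 ± 0.33 (adjusted p = 0.016). With both replicates at 40 μg/ml kept, the call of *RPL2A* depended on the setting, with limma adjusted p from 0.0015 to 0.109. In replicate 2 alone the value of *RPL2A* was 0.32. Its spot was dim, with a median untreated intensity of 2152 on these arrays compared with 20843 for *RPL2B*.

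The 5S ribonucleoprotein brings Rpl5 and Rpl11 into the subunit together with 5S rRNA. Both *RPL11* genes fell. *RPL11B* (YGR085C) gave -1.97 and -1.83 in replicate 1 and -0.74 and -0.86 in replicate 2, with a mean of -1.35 ± 0.78 (adjusted p = 0.014). *RPL11A* had a mean of -1.18 ± 0.55 (adjusted p = 0.012). The paralogues were 0.17 ± 0.23 apart. *RPL5* did not pass, at -0.31 ± 0.09 (adjusted p = 0.220), although it was below 0 on 4 of 4 arrays.

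At the rim of the tunnel exit, where Rpl17, Rpl19, Rpl25, Rpl26 and Rpl31 surround the opening, 5 of 9 genes fell and the median was -0.89. *RPL19B* (YBL027W) gave -1.86 and -2.01 in replicate 1 and -1.07 and -0.43 in replicate 2, with a mean of -1.34 ± 0.83 (adjusted p = 0.015). *RPL19A* stayed between -0.05 and -0.01 on the same 4 arrays. *RPL17B* (-0.91), *RPL31B* (-0.95), *RPL26A* (-0.89) and *RPL26B* (-1.07) also fell, whereas *RPL17A* (-0.01), *RPL31A* (-0.01) and *RPL25* (-0.02), whose protein is the docking site of the signal recognition particle and of nascent chain factors, lay near 0. With loess fitted without the ribosomal protein spots these 3 genes had -0.36, -0.34 and -0.34 and were not called. *RPL17A* was among the 5 highest members, but its arrays read 0.13 and 0.30 in replicate 1 and -0.06 and -0.39 in replicate 2, on both sides of 0.

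On the subunit interface and the side that binds translation factors (*RPL9*, *RPL23*, *RPL24* and *RPL30*), 4 of 7 genes fell, with a median of -0.82. *RPL9A* (YGL147C) gave -1.81 on both arrays of replicate 1 and -1.36 and -0.80 on those of replicate 2. Its mean of -1.45 ± 0.51 had the smallest adjusted p of the members (0.0067). *RPL23A* (-0.82), *RPL23B* (-1.12) and *RPL24B* (-0.88) fell too. *RPL24A* and *RPL30*, whose protein can bind its own transcript, are neighbours on chromosome VII, and both missed the threshold, at -0.38 (adjusted p = 0.130) and -0.23 (adjusted p = 0.375).

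*RPL1*, whose protein forms the mobile L1 stalk, and *RPL12*, at the base of the stalk that recruits elongation factors, were the group with no call in the reported fit. Their 4 genes lay between -0.42 and -0.17, with a median of -0.33. All 4 were below 0 in both replicates, but none passed, the smallest adjusted p being 0.106 for *RPL12B*. With loess fitted without the ribosomal protein spots, *RPL12A* (-0.70, adjusted p = 0.026) and *RPL12B* (-0.74, adjusted p = 0.022) were called lower by limma. *RPL1A* (-0.49) and *RPL1B* (-0.51) were not.

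The other 30 members encode proteins of the body and the surface of the subunit, and 17 of them fell (median -0.70). *RPL21B* (YPL079W) gave -1.99 and -1.82 in replicate 1 and -0.92 and -0.78 in replicate 2, with a mean of -1.38 ± 0.75 (adjusted p = 0.012). *RPL13A* (YDL082W) gave -1.83 and -1.63 in replicate 1 and -0.86 and -0.95 in replicate 2, with a mean of -1.32 ± 0.58 (adjusted p = 0.0098). The replicates did not overlap in either gene, and all arrays were below 0. *RPL15A* (-1.32), *RPL15B* (-1.23), *RPL18B* (-1.19) and *RPL33A* (-1.32) fell by similar amounts. *RPL16A* (YIL133C), for a protein on the outer face, was the member that fell with the least spread, between -1.0 and -0.83 on the 4 arrays and with a mean of -0.94 ± 0.07 (adjusted p = 0.011).

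The upper end of the order held *RPL29*, *RPL14B*, *RPL34B* and *RPL17A* beside *RPL2A*. *RPL14B*, whose protein lies on the solvent side, read 0.06, 0.11, -0.00 and 0.03 on the 4 arrays, a mean of 0.05 ± 0.05. *RPL34B* read 0.16 and 0.32 in replicate 1 and -0.12 and -0.34 in replicate 2, so that its mean of 0.01 joins replicates of opposite sign. *RPL29*, for a small basic protein that is dispensable for growth, read 0.73, -0.01, -0.00 and -0.22. Its mean was 0.12 ± 0.33, and it rests on a spot close to the blanks, with a median untreated intensity of 103 and 1 of 4 arrays above them in each channel. The deposited ratios of the authors gave 0.88 for *RPL29* (adjusted p = 0.037).

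At 80 μg/ml no member was called in either direction by limma, where 1.41% of all genes were lower and 2.11% higher, 3.52% together. The smallest adjusted p was 0.193, and 1 member had an unadjusted p under 0.05, against 1180 of all 6389 genes. The median of the members was -0.05, with -0.03 in replicate 1 and -0.04 in replicate 2, and the means lay between -0.45 and 0.23. On 4 of 4 arrays 10 members were below 0, compared with 22.0% of all genes, and 4 were above 0. The order of the members hardly recurred between the replicates at this dose (r = 0.17 across the 60 genes, which share the arrays), nor between the arrays of a dye reversal (r = -0.01 and 0.25).

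*RPL16A* was the lowest member at 80 μg/ml. It read -0.71 and -0.40 in replicate 1 and -0.05 and -0.65 in replicate 2, with a mean of -0.45 ± 0.14 (adjusted p = 0.193). It was below 0 on 4 of 4 arrays and was called when each dose was fitted alone (adjusted p = 0.024) or when arrays were scaled to the same spread (0.022). In these fits 10% and 10.8% of all genes were called lower, against 1.41% in the reported fit. *RPL34A*, with -0.43, -0.24, -0.10 and -0.30, was likewise below 0 throughout, and its mean was -0.27 ± 0.09 (adjusted p = 0.447). *RPL13A* read 0.02, -0.28, -0.35 and -0.42, a mean of -0.26 ± 0.18.

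Single arrays set some of the other extremes at 80 μg/ml. *RPL6B* read -1.41 on array A of replicate 1 and 0.04, 0.17 and -0.16 on the others, which gave a mean of -0.34 ± 0.49. *RPL26A*, with the highest mean (0.23 ± 0.21), read 0.84 on the same array and -0.08, 0.08 and 0.08 on the others. *RPL10* read 0.52, 0.11, 0.19 and -0.07, and *RPL30* read 0.54, 0.00, 0.19 and -0.06, again with the highest value on that array. *RPL29* (0.28, 0.07, 0.18 and 0.25) and *RPL33A* (0.10, 0.04, 0.27 and 0.08), for another structural protein, were above 0 on 4 of 4 arrays, with means of 0.19 ± 0.03 and 0.12 ± 0.07 that did not pass.

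Tested directly, the difference between the doses passed in no member (limma contrast of 80 minus 40 μg/ml, smallest adjusted p 0.134), and of all genes 0.047% were higher and 0.0939% lower at 80 μg/ml, 0.141% together. Before adjustment 27 of the 60 members and 1337 of all 6389 genes had a p under 0.05. The median difference was 0.48 for the members and 0.01 over all genes. *RPL9A* differed by 1.27 (adjusted p = 0.134), *RPL8B* by 1.35 (adjusted p = 0.144) and *RPL33A* by 1.44 (adjusted p = 0.145). The outcome turned on the fit: 12 members were higher at 80 μg/ml with arrays scaled to the same spread, and 29 were higher and 1 lower without replicate 2 of 40 μg/ml, against 3 higher without its replicate 1. Of all genes, 4.3% were higher and 5.04% lower with arrays scaled, 18.0% and 18.6% without replicate 2, and 1.75% and 2.25% without replicate 1. The 31 genes that fell at 40 μg/ml lay between -0.45 and 0.23 at 80 μg/ml, with a median of -0.11, and 24 of them were below 0. The doses were measured on separate cultures and arrays, and the median untreated intensity of the members lay between 14757 and 23450 on the arrays of 40 μg/ml and between 15076 and 31068 on those of 80 μg/ml.

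Between paralogues the responses at 40 μg/ml often parted. Both genes fell in 9 of the 26 pairs, with *RPL6*, *RPL11*, *RPL15*, *RPL16*, *RPL23* and *RPL26* as examples. Only one gene of the pair passed as lower in 10 (*RPL2*, *RPL7*, *RPL8*, *RPL9*, *RPL13*, *RPL17*, *RPL19*, *RPL21*, *RPL24* and *RPL31*), and neither did in 7 (*RPL1*, *RPL4*, *RPL12*, *RPL14*, *RPL20*, *RPL22* and *RPL34*). This split depended on the loess curve. Fitted without the ribosomal protein spots, it also gave *RPL7B* (-0.67), *RPL21A* (-0.68), *RPL24A* (-0.71), *RPL22A* (-0.54) and both *RPL12* genes as lower. *RPL8A* (-0.56), *RPL13B* (-0.41) and *RPL19A* (-0.36) were still not called there. A call in one paralogue and not in the other does not show that they differ, so the difference was taken on each array. With 2 replicates at a dose no exact test could reach 0.05, and the differences are given as values. The log2 ratio of A minus that of B had 1 sign on 4 of 4 arrays in 12 pairs, with B the lower in 8 and A the lower in 4. A difference larger than 0.5 in size was seen in 10 pairs with 40 μg/ml and in 0 with 80 μg/ml, and its median size was 0.27 and 0.08. The counts with 40 μg/ml include the *RPL9* pair, in which *RPL9B* was near the blank spots, and without it they were 11 pairs with 1 sign and 9 over 0.5. Across the 26 pairs the means of A and B had r = 0.07 with 40 μg/ml KP1019 and r = 0.64 with 80 μg/ml, values that share the same arrays.

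**Figure D2:**
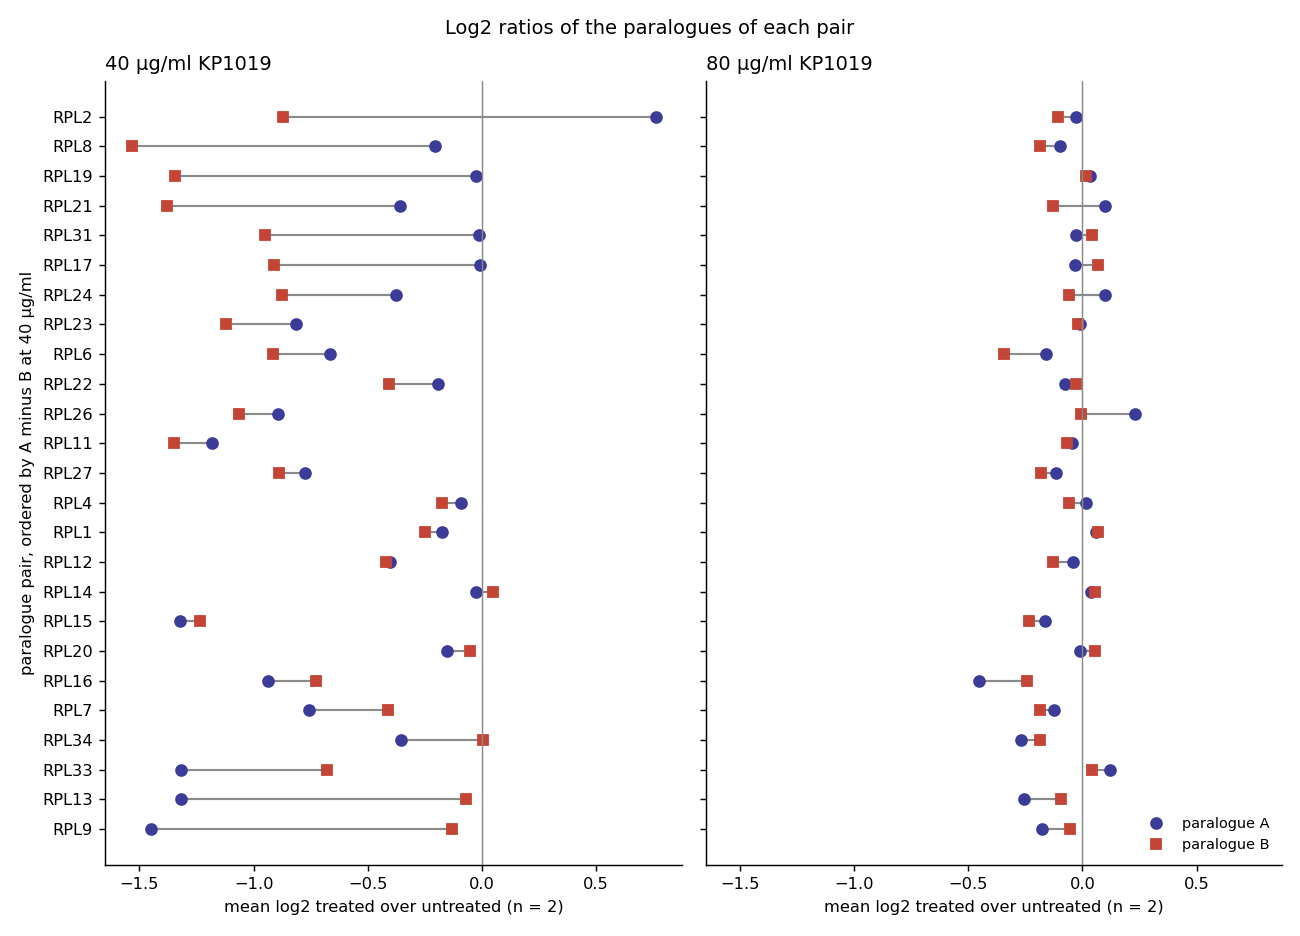
Mean log2 treated over untreated (n = 2) of paralogue A (circles) and paralogue B (squares) of 25 pairs at 40 and 80 μg/ml, joined by a line and ordered by A minus B at 40 μg/ml. At 40 μg/ml 10 pairs are more than 0.5 apart, with *RPL2* the widest at 1.63, and at 80 μg/ml the widest is 0.24.

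The *RPL2* pair was the widest apart. A minus B was 2.53 and 2.08 on the arrays of replicate 1 and 0.92 and 1.00 on those of replicate 2, a mean of 1.63 ± 0.95. The *RPL8* pair followed with 1.93, 2.23, 0.87 and 0.28, a mean of 1.33 ± 1.06. *RPL8A* itself read -0.01, 0.02, -0.18 and -0.65, and the difference was 2.08 in replicate 1 and 0.58 in replicate 2.

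For *RPL19*, A minus B was 1.84 and 1.96 in replicate 1 and 1.04 and 0.42 in replicate 2, a mean of 1.32 ± 0.83. For *RPL13* the A gene was the lower one, by -1.75, -1.76, -0.80 and -0.68, a mean of -1.25 ± 0.72. *RPL13B* stayed between -0.28 and 0.13. In each of these pairs the difference in replicate 2 was smaller than that in replicate 1, and no array reversed it. Under the alternative settings with both replicates, the *RPL19* difference was 0.99 to 1.38, that of *RPL13* -1.27 to -0.94, that of *RPL8* 0.97 to 1.44 and that of *RPL2* 1.22 to 1.88.

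The *RPL9* pair had a mean difference of -1.32 ± 0.38 (-1.52, -1.65, -1.28 and -0.82 on the arrays), but *RPL9B* could hardly be read. Its median untreated intensity was 111 on these arrays, above the blank spots on 1 of 4 in the untreated and 0 of 4 in the treated channel, against 13095 for *RPL9A*. The difference moved between -2.03 and -0.72 with the processing. What the spots of each gene detect is not given in the sources used here, and whether near-identical paralogues bind each other's spots was not tested.

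At 80 μg/ml 5 of the 26 pairs had 1 sign on 4 of 4 arrays. Some pairs would have 1 sign without any difference, and their number was not tested at either dose. The ratios of the members hardly recurred between the replicates at 80 μg/ml (r = 0.17). A minus B was 0.44, 0.07, 0.20 and 0.20 for *RPL21*, a mean of 0.23 ± 0.04. For *RPL24* it was 0.41, 0.05, 0.13 and 0.05, a mean of 0.16 ± 0.10. *RPL4* read 0.04, 0.05, 0.18 and 0.02 (mean 0.07 ± 0.04) and *RPL20* -0.06, -0.02, -0.12 and -0.07 (mean -0.07 ± 0.04), each with a mean size under 0.1. *RPL21* and *RPL24*, the latter for a protein of a bridge to the small subunit, also had the B gene lower on 4 of 4 arrays at 40 μg/ml, by 1.02 ± 0.68 and 0.50 ± 0.28.

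The ratio at 40 μg/ml moved with the brightness of the spots. Brightness here is the median untreated intensity of a spot on the 4 arrays at this dose, which depends on the spot as well as on the transcript and is not a level to be set between genes. The limit of 10000 was chosen after the values were seen. Of the 51 members at or above it, the dimmest 17 (10211 to 15583) had a median ratio of -1.22 and 16 of them fell. The next 17 (16013 to 22657) had a median of -0.68 and 10 fell. The brightest 17 (22703 to 32753) had a median of -0.18 and 1 fell, *RPL28*. Spearman's rho between brightness and ratio was 0.80 over these 51 genes, and 0.40 with brightness taken from the arrays at 80 μg/ml, both given as descriptions.

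**Figure D3:**
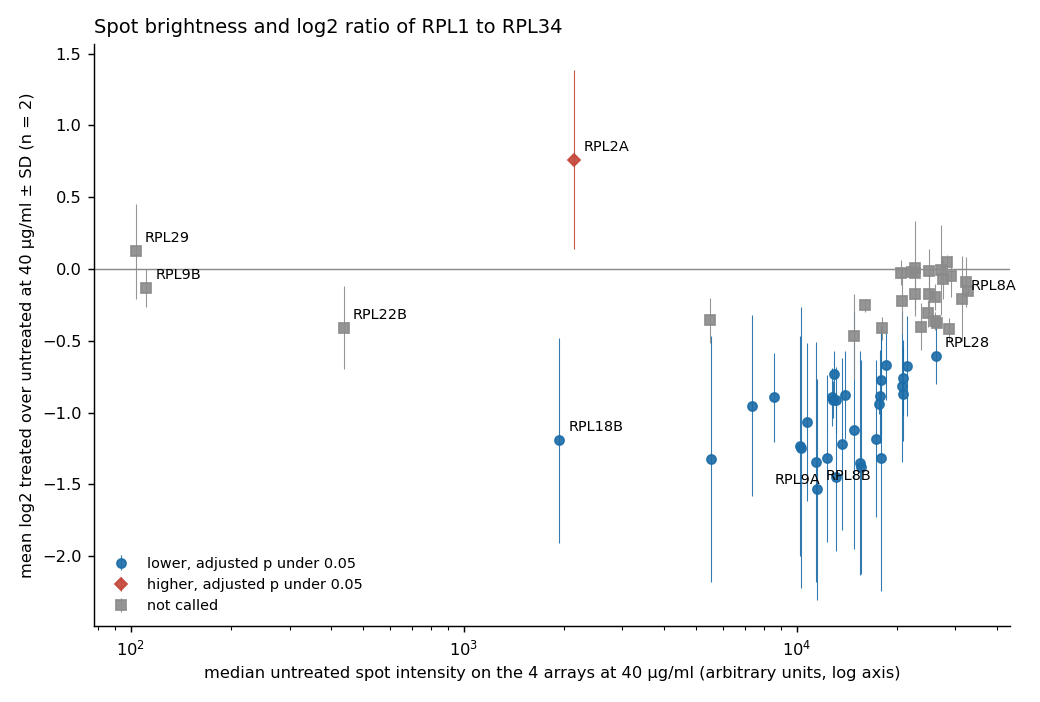
Mean log2 ratio at 40 μg/ml ± SD (n = 2) of the 60 genes against the median untreated spot intensity on the 4 arrays at that dose (arbitrary units, log axis), with calls marked by symbol. Among spots from 10211 upward the ratio runs from a median of -1.22 in the dimmest 17 to -0.18 in the brightest 17, and *RPL9B* and *RPL29* lie near 100.

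Other ribosomal protein genes in the same ranges of brightness showed the same steps, with 11 of 14, 18 of 25 and 0 of 24 lower and medians of -1.28, -0.90 and -0.19. Among the remaining genes, 22 of 111, 13 of 56 and 2 of 21 were lower in these ranges, with medians of -0.02, -0.13 and 0.13. Genes of the stalk P proteins and of the mitochondrial ribosome were not taken out of these. In the pairs more than 0.5 apart, the paralogue with the lower ratio was also the one with the dimmer spot in 8 of 10, as in *RPL8* (31328 for A and 11518 for B) and *RPL19* (22657 and 11441), with *RPL2* and *RPL9* the exceptions. Over all 26 pairs this held in 18. No spot mean reached the top of the 16-bit scale, while 0 to 14 of the 76 member spots lay over the middle of it on the arrays at 40 μg/ml and 6 to 31 on those at 80 μg/ml. Without such spots, an alternative that was not planned, 53 members were left, of which 28 were called lower, with a median of -0.73.

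Ribosomal protein spots also made up 33.2% to 48.8% of the spots at least as bright as the median member. With the loess curve fitted without these spots, an alternative chosen after seeing the data, 39 members were called lower and 0 higher, with a median of -0.91. The part of brightness in the results was not tested.

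A group of 9 members lay under 10000, and 4 of them fell (*RPL15A*, *RPL18B*, *RPL26A* and *RPL31B*). *RPL22B*, a minor paralogue of a nonessential protein, had a median of 436 and was above the blanks on 2 of 4 treated arrays. Its ratio was -0.41 ± 0.29. In untreated cells the spot of *RPL18B* gave a median of 1939 on the arrays of the lower dose and 22443 on those of the higher dose, and that of *RPL26A* gave 8565 and 27687.

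*RPL32*, for a structural protein, was measured by 17 spots, which show how far spots of 1 gene agree on an array. On the arrays at 40 μg/ml 16 of the 17 spots lay together, with means of -1.26, -1.13, -0.67 and -0.79 and SDs of 0.09, 0.12, 0.10 and 0.11. The remaining spot read 0.02, 0.16, 0.15 and 0.84. Its untreated intensity was 71.1, 84.6, 749 and 69.5 on these arrays, where another *RPL32* spot gave 21536, 21051, 14402 and 13954. With all 17 spots averaged, *RPL32* fell by 0.89 ± 0.33 (adjusted p = 0.016). At 80 μg/ml the 16 spots had means of 0.13, -0.04, -0.31 and -0.10, on both sides of 0, with SDs of 0.08 to 0.23.

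**Figure D4:**
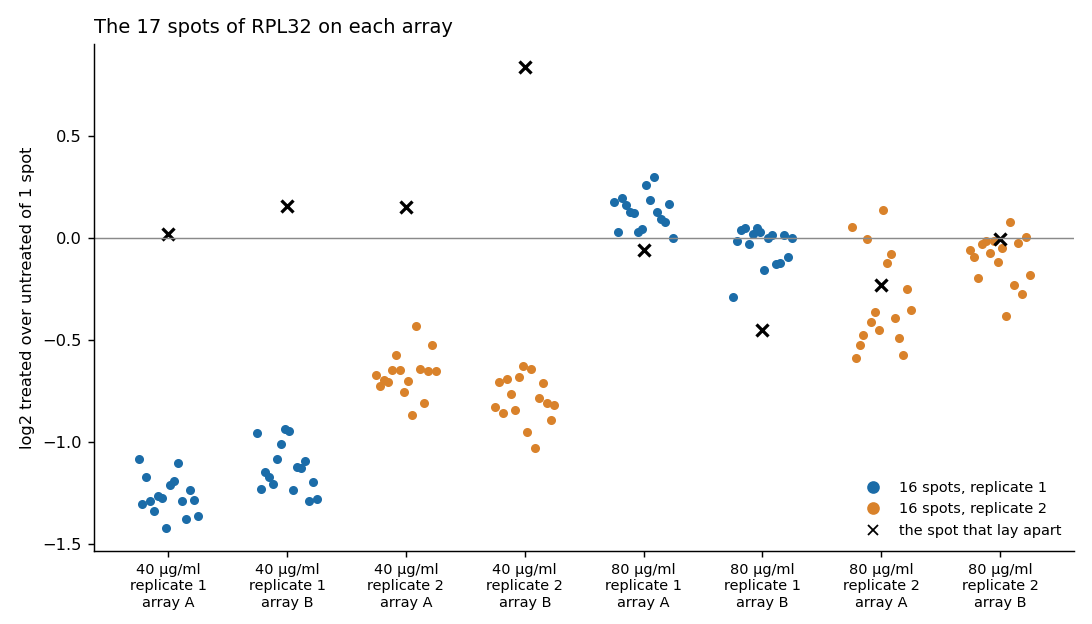
Log2 treated over untreated of each of the 17 *RPL32* spots on the 8 arrays (dose, replicate and dye-reversal array on the x axis), with 16 spots as circles coloured by replicate and the remaining spot as a cross. At 40 μg/ml the 16 spots lie between -1.42 and -0.43 and the remaining spot between 0.02 and 0.84.

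Genes related to these members were described from lists chosen with earlier results known. Of the other 16 large-subunit genes (*RPL35A* to *RPL43B*), 5 fell at 40 μg/ml and the median was -0.42, with *RPL35A* at the tunnel exit (-1.20), *RPL43A* (-0.93), *RPL36A* (-0.90), *RPL35B* (-0.66) and *RPL40B* (-0.54) as the ones called. Of 56 small-subunit genes 30 fell, with a median of -0.79. Over all genes 10.3% were called lower at this dose. With 80 μg/ml 0 genes of either list were called by limma, 0 had an unadjusted p under 0.05, and the medians were 0.05 and -0.05. Of all 6389 genes, 1.41% were called lower and 2.11% higher at 80 μg/ml, and 1180 had an unadjusted p under 0.05.

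Of 10 regulators of ribosomal protein genes, 1 (*HMO1*) was called at 40 μg/ml, as lower, where 10.3% of all genes were called lower. Hmo1 is a high mobility group protein that binds ribosomal DNA and many ribosomal protein promoters. *HMO1* gave -2.43 in replicate 1 and -0.96 in replicate 2, a mean of -1.70 ± 1.05 (adjusted p = 0.012), below 0 in both. At 80 μg/ml it gave -0.95 and -0.91, a mean of -0.93 ± 0.03 (adjusted p = 0.160). *RAP1*, *FHL1*, *IFH1*, *CRF1*, *SFP1*, *MRS6*, *SCH9*, *TOR1* and *STB3* did not pass at either dose, and their values at 40 μg/ml lay between -0.63 (*SCH9*) and 0.15 (*RAP1*).

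Of 16 chaperones and assembly factors of large-subunit proteins, 4 fell and 2 rose at 40 μg/ml, and the median was -0.13. Of all genes, 10.3% were called lower and 13% higher at this dose. Those that fell were *RLP24* (-1.07), which holds the place of Rpl24 in the precursor, *MRT4* (-0.96), which holds that of the stalk protein P0, the cytoplasmic GTPase gene *LSG1* (-0.62) and *RRB1* (-0.59), the chaperone of Rpl3. *REH1* (0.76) and *JJJ1* (0.63), which act on late cytoplasmic subunits, rose. With 80 μg/ml 0 of the 16 were called, with 3 at an unadjusted p under 0.05, where 1180 of all 6389 genes had such a p. Bcp1, Sqt1, Acl4 and Syo1, chaperones of Rpl23, Rpl10, Rpl4 and Rpl5 with Rpl11, were encoded by genes that did not pass at either dose.

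**Figure D5:**
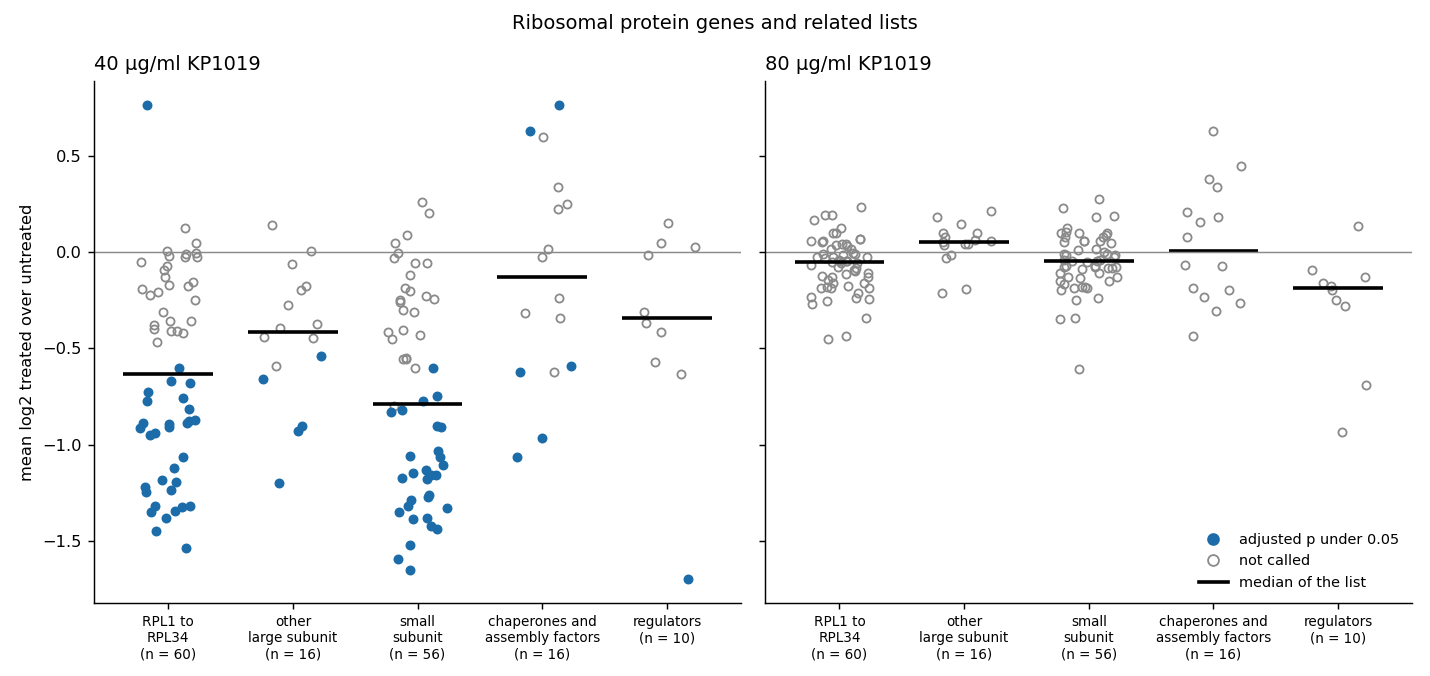
Mean log2 treated over untreated of each gene (points, n = 2) in 5 lists at 40 and 80 μg/ml, filled where the adjusted p is under 0.05, with the median of each list as a bar. At 40 μg/ml the medians are -0.64 for *RPL1* to *RPL34*, -0.42 for the other large-subunit genes and -0.79 for the small-subunit genes, and at 80 μg/ml no gene of the 5 lists is filled.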

How the data were processed

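Images were quantified by the authors with MagicTool 2.1 and its adaptive circle method. The deposited files of the 8 arrays give spot and background intensity in either channel, mean and total, not normalized. The deposited table of the series holds a signed fold change of red over green, handled here as a score, whose scaling method is not given in the sources used here. Its ratios correlated with those computed here with r between 0.86 and 0.97 over all genes, and it served as an alternative after turning. Doses, replicates and dyes were taken from the labels.

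Mean intensities were corrected with normexp (offset 50) and normalized by loess within arrays, giving 85 blank and 23 control spots no weight (limma 3.58.1 under R 4.3.3). Values of all spots of a gene were averaged, ratios of swapped arrays were turned, and the mean of a dye-reversal pair was taken, leaving 4 values per gene. The number of arrays limits the precision. Each dose was tested against 0, and the difference between the doses likewise, with lmFit and eBayes (two-sided, both doses sharing 1 estimate of the spread, 2 residual and 5.66 prior degrees of freedom) and Benjamini-Hochberg adjustment over 6389 genes. Called means an adjusted p under 0.05. Lists were described by counts and medians, and paralogue differences by values. The calculation was tested on simulated data, with independent genes and the same spread at both doses. It found 66% (40 μg/ml) and 64% (80 μg/ml) of changes of log2 1, and 100% of those of log2 2. Unchanged genes made up 6.74% and 5.2% of its calls. The real genes share arrays and the real spread differed between replicates, so these shares need not hold for the data. Of the gene names, 5848 matched RefSeq, which was used for symbols and neighbours. The labels do not say whether the cultures were independent beyond calling them biological samples. The p-values rest on the spread between them, pooled over both doses, and on a prior from the spread over all genes. They do not measure the SD printed for 1 dose alone. In a fit without a replicate, the dose with 1 replicate adds nothing to the pooled spread.

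Values on every array are given for the 5 members with the lowest and the 5 with the highest mean at each dose, the 5 pairs with the largest difference among those with 1 sign on 4 of 4 arrays, and the regulators that passed, the last by replicate. *RPL2B*, *RPL8A* and *RPL32* and the other members given with values were chosen after their values were seen. Of the members 1, and the difference within its pair, is not reported here, while counts and medians include it. Members and lists were chosen with earlier results of these data known. Alternatives changed the background correction, the normalization, the signal, filters on dim and bright spots, the estimate of the spread, the replicates and a replicate block.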

Additional observations from a re-analysis of the deposited data

Results flagged for a closer look

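Values of 4 arrays were examined for 1 that lies far from the rest (Dixon's test at the 95% level) in 50 sets, and chance alone marks about 1 set in 20. *RPL2A* at 80 μg/ml read -0.24 on array B of replicate 2 and 0.03 to 0.05 on the other 3 arrays. *RPL33A* was below 0 on every array at 40 μg/ml and above 0 on every array at 80 μg/ml, with a difference between the doses of 1.44, which did not pass in the limma contrast (adjusted p = 0.145).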

How the results depend on the processing

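Plain background subtraction called 2.39% of all genes lower at 40 μg/ml, and the filter on dim spots 26.9% of the genes it kept. The other alternatives with every replicate called 8.89% to 15.6%, against 10.3% in the reported fit. The count of members called lower at 40 μg/ml was 31, and it stayed within 28 to 39 under the alternatives with every replicate except subtraction. Subtraction left 3 (33 with an unadjusted p under 0.05). Leaving out a replicate gave 21 to 34. The call of *RPL2A*, the 1 member higher, was lost (0 members) with subtraction, median centring, total pixel intensity, loess without ribosomal protein spots and the filter on dim spots, which removes it, and leaving out a replicate gave 0 to 1. With the deposited ratios *RPL2A* lost its call and *RPL29* gained one. The median at 40 μg/ml of -0.64 became -0.91 with loess without ribosomal protein spots and -0.79 to -0.45 without a replicate. At 80 μg/ml 2 members were lower (0 in the reported fit) with arrays scaled or each dose fitted alone. Of all genes, 10.8% and 10% were lower in these fits, against 1.41% in the reported fit. The median at 80 μg/ml of -0.05 was -0.12 with median centring, -0.093 with the deposited ratios, -0.080 with loess without ribosomal protein spots, -0.066 with arrays scaled, -0.056 with subtraction, -0.057 with total pixel intensity, -0.053 with the filter on dim spots and with bright spots left out, and -0.037 to -0.035 without a replicate of that dose. Members that differed between the doses numbered 12 with arrays scaled (9.34% of all genes, against 0.141% in the reported fit) and 0 to 30 without a replicate. With the replicate number as a block, 15 members and 6.89% of all genes differed between the doses. The block changed no count of members called at either dose, while the share of all genes called lower went from 10.3% to 12.4% at 40 μg/ml and from 1.41% to 2.93% at 80 μg/ml. The labels do not tie the numbers across doses, and deviations of same-numbered replicates had r = -0.14 over all genes. The crossed pairing was not planned and was added because of this r. It gave 20 members and 13.0% of all genes. With bright spots left out, 17 pairs still had values on 4 of 4 arrays at 40 μg/ml and 4 at 80 μg/ml. The 17 held 7 of the 12 pairs with 1 sign, and the 7 kept it, while the 4 held 0 of the 5 and the count was 0. Pairs with 1 sign numbered 14 to 23 and 12 to 15 without a replicate, where only 2 arrays of that dose remain. No named member changed direction at a dose where the reported fit called it, but 8 crossed 0 at a dose where they were not on the log2 scale. With 40 μg/ml *RPL34B* (0.01) became -0.029 with subtraction, -0.037 with arrays scaled, -0.095 with the deposited ratios, -0.21 with median centring and -0.31 with loess without ribosomal protein spots, and *RPL14B* (0.05) became -0.057, -0.16 and -0.30 with the last 3. *RPL17A* (-0.01) became 0.060 with total pixel intensity and 0.035 with bright spots left out. Without a replicate *RPL17A* covered -0.23 to 0.21, *RPL34B* -0.23 to 0.24 and *RPL29* (0.12) -0.11 to 0.36. With 80 μg/ml *RPL19B* (0.02) became -0.046 with median centring, -0.020 with the deposited ratios and -0.0084 with loess without ribosomal protein spots. *RPL2A* (-0.03) became 0.033 with median centring, 0.0097 with total pixel intensity and 0.12 with the deposited ratios. *RPL14B* (0.05) became -0.0049 with median centring and *RPL17A* (-0.03) 0.034 with bright spots left out. Without a replicate *RPL19B* covered -0.0073 to 0.038, *RPL2A* -0.099 to 0.042, *RPL8B* -0.37 to 0.00087 and *RPL6B* -0.69 to 0.0036. Single spots limit all members except *RPL32*, and spots near the blanks limit *RPL9B*, *RPL29* and *RPL22B*. The planned exclusion of saturated spots left out no spot, since no spot mean reached the top of the scale, and is not counted as an alternative. A mean below the top does not show whether single pixels of a spot reached it.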
